A study of Homo sapiens with 12 samples.

Results

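The regions described here are the nucleolus-associated domains (NADs) that were called on human chromosome 18, namely every entry of the naive and of the primed list that lies on this chromosome. There were 1822 such regions in the naive list, out of 61750 on chromosomes 1 to 22 and X, and 1075 in the primed list, out of 29994, which makes 2897 of 91744 in all. NADs are stretches of chromosomal DNA that are recovered with isolated nucleoli. They were mapped in H9 cells, an established line of human embryonic stem cells, without treatment, either naive (kept in RSeT medium) or primed (kept in mTeSR medium). Each state had 3 PCR-free libraries of nucleolar DNA and 3 of whole-cell DNA, and the labels of all 6 point to 1 list for that state. A list holds positions on hg38 and no height or p-value, so there are no replicate values, no test compares the states, the depth is unknown, and every value below describes these lists. H9 is 1 cell line, and how closely its cells in RSeT resemble an embryo before implantation was not tested.

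The nucleolus forms around the ribosomal DNA arrays on the short arms of the acrocentric chromosomes, and chromosome 18 carries none of these arrays. It is a small, gene-poor chromosome whose territory lies near the nuclear edge in many cell types. NADs are as a rule rich in silent, late-replicating chromatin, and many of the same sequences can also be found at the nuclear lamina. The naive state is taken as a model of the early epiblast, and the primed state as one of the epiblast after implantation. The title of the study ties the organisation of the nucleolus to LINE1 elements and to the Polycomb complex PRC2.

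Sequences from the start of 4 genes of chromosome 18 are given first, since each gene's start site lies in a 10 kb bin of a different kind: called in naive cells only (PMAIP1, a pro-apoptotic BCL2 family member), in primed cells only (GATA6, a transcription factor of primitive endoderm and heart), in both (CDH2, N-cadherin, an adhesion protein of mesenchymal and neural cells) and in neither list (MC4R, a melanocortin receptor that controls appetite). They are the 250 bases before the annotated start, read in the direction of the gene from RefSeq (GRCh38.p14, the same assembly as hg38), with CpG dinucleotides in capitals. They stand at chr18:59899746-59899995 on the plus strand for PMAIP1, at chr18:22169339-22169588 on the plus strand for GATA6, at chr18:28177131-28177380 on the minus strand for CDH2 and at chr18:60372776-60373025 on the minus strand for MC4R.
PMAIP1: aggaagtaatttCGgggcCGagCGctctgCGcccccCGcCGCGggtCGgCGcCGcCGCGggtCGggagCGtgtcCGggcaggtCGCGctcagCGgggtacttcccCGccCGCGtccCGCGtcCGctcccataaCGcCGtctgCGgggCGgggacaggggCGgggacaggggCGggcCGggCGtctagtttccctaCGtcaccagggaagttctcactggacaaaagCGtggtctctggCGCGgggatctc
GATA6: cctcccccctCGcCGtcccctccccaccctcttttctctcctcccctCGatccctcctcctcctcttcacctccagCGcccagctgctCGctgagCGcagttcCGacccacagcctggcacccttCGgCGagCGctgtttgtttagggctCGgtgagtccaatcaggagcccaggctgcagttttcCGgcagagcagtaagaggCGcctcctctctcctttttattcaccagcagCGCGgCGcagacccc
CDH2: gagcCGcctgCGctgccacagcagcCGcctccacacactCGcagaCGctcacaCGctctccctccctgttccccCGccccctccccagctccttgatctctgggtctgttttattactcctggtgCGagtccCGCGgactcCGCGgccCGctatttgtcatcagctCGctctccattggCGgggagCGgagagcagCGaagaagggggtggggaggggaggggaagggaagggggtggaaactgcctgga
MC4R: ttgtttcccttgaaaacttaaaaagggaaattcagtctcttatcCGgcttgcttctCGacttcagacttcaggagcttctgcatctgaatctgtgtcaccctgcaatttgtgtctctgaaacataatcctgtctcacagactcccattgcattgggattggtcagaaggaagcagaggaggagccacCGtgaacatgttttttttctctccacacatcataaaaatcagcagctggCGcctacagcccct
The PMAIP1 sequence holds 36 CpG and is 72.8% G and C. The GATA6 sequence holds 16 CpG (64.4%), the CDH2 sequence 17 (66.0%) and the MC4R sequence 4 (45.6%). PMAIP1 and MC4R are not typical of their kinds of bin. In the slightly longer windows described below, naive-only starts had a median of 51.7% with 8 CpG, and starts in neither list 58.5% with 19 CpG. A NAD is called over whole 10 kb bins, so these letters show what lies at the start of the genes and not where contact with the nucleolus was.

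Naive and primed NADs covered similar amounts of chromosome 18. The share was 48.2% in naive cells (38.66 Mb) and 52.6% in primed cells (42.24 Mb) of 80.26 Mb, a naive minus primed difference of -4.46 percentage points. Over all 23 chromosomes, 40.2% of 10 kb bins were in naive and 45.5% in primed NADs. The sign of the difference depends on how gaps are treated: with regions up to 50 kb apart joined, the naive share was 89.5% and the primed share 75.4%, a difference of 14.2 points.

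Among the chromosomes, chromosome 18 stood near the middle in primed cells and above it in naive cells. Its naive share compared with 43.4% ± 9.36 on the 22 others (SD over chromosomes) and ranked 7 of 23. Its primed share compared with 54.7% ± 26.1 and ranked 10 of 23. Chromosomes 10, 12 and 9 were nearest to it in both shares together, at distances of 7.26, 10.5 and 12.4 percentage points. Chromosome 13, the other very gene-poor chromosome (3.34 coding genes per Mb on chromosome 18 and 3.42 on chromosome 13), had 46.8% in naive and 32.8% in primed NADs. Chromosome 17, of similar length but with 13.9 coding genes per Mb, had 44.9% and 72.7%, and chromosome 20 had 51.6% and 94.5%. With chromosomes X and 19 left out of the others, the primed distance from their mean was 1.25 points, against -2.03 points with all 22, so chromosome 18 is not placed above or below the others in primed cells.

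**Figure D1:**
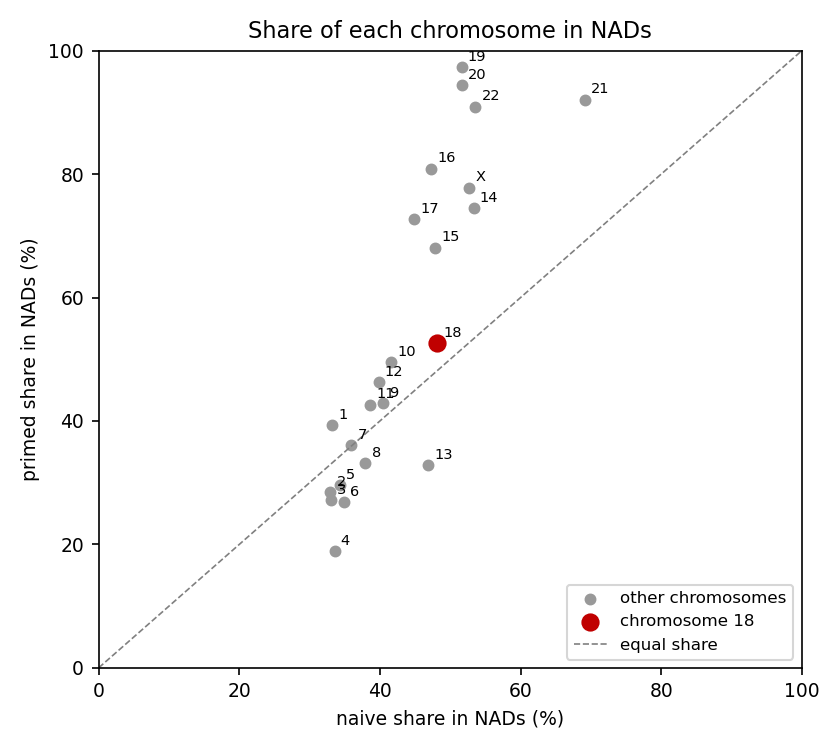
Share of each of 23 chromosomes in naive NADs (horizontal axis, %) and in primed NADs (vertical axis, %); each point is a chromosome and the dashed line marks equal shares. Chromosome 18 (red) lies close to that line, at 48.2% and 52.6%, between chromosome 13 below the line and chromosomes 17 and 20 far above it.

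The lists differed in the length of their regions. Naive regions of chromosome 18 averaged 21.2 kb, and primed regions 39.3 kb. A single 10 kb bin made up 48.0% of naive and 50.2% of primed regions on chromosome 18, against 58.0% and 51.4% on the other chromosomes, and the median was 20 kb in naive and 10 kb in primed cells. Long regions (100 kb or more) accounted for 3.98% of naive and 50.8% of primed NAD sequence on the chromosome. The primed list had 10 regions of 300 to 990 kb and 3 of 1 Mb or more, and the naive list had none above 170 kb.

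**Figure D2:**
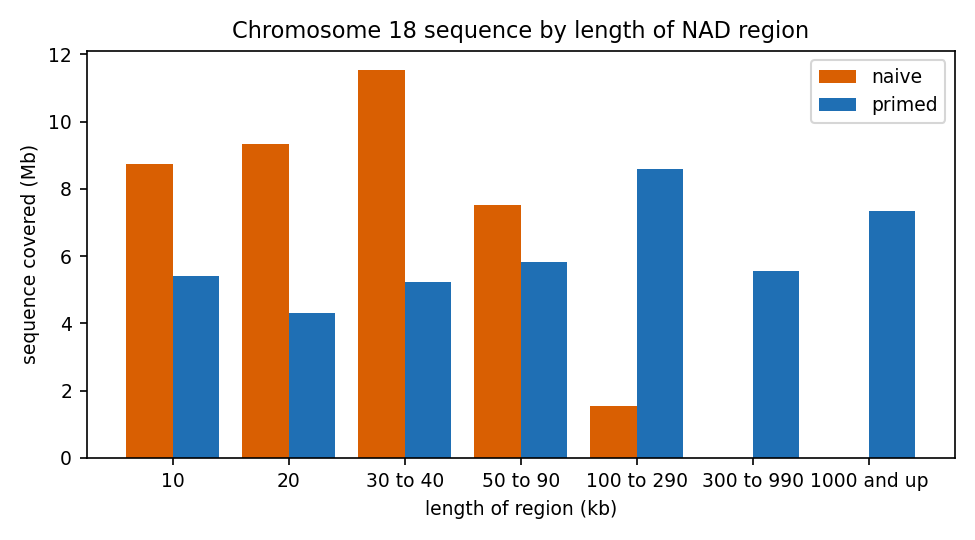
Sequence of chromosome 18 in NADs (Mb, vertical axis) by length of the region that covers it (kb, horizontal axis), for naive (orange) and primed (blue) cells. The class of 30 to 40 kb held more naive sequence than any other (11.53 of 38.66 Mb), and 7.34 Mb of the primed sequence lay in the class of 1000 kb and more, where the naive list is empty.

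Position along the chromosome separated the states far more than the totals did. Primed NADs took up nearly the whole short arm and the sequence on both sides of the centromere. Farther along the long arm they were sparser and uneven, and they were almost missing from a stretch of its outer part. Naive NADs were spread at about even density over the whole chromosome. The arms were divided by the longest stretch without any annotated gene, chr18:15340001-20940000, 5.6 Mb that hold the centromere.

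On the short arm, naive NADs covered 57.6% and primed NADs 95.3% of 15.34 Mb. On the long arm the shares were 45.6% in naive and 38.5% in primed cells, over 59.32 Mb. The short arm thus exceeded the long arm by 11.99 percentage points in naive and by 56.8 points in primed cells. The contrast in primed cells was 33.1 points with regions up to 50 kb apart joined and 65.5 points without single-bin regions. In the gene-free stretch, naive NADs covered 49.1% and primed NADs 85.5%. That stretch is satellite repeat for the most part, where short reads cannot be placed uniquely, and without it the shares of the chromosome were 48.1% in naive and 50.2% in primed cells.

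The same contrast showed in windows of 1 Mb. The 15 short-arm windows had 48 to 77% in naive NADs (median 57%) and 87 to 100% in primed NADs (median 95%), with no overlap between the ranges. The 59 long-arm windows had 29 to 64% in naive NADs (median 46%) and 0 to 100% in primed NADs (median 35%), ranges that overlap. The SD over all 80 windows was 10.2 points in naive and 33.0 points in primed cells. Naive values varied less from window to window than on most chromosomes (21st of 23 by SD, others 12.4 ± 2.27), and primed values more than on most (6th of 23, others 27.0 ± 9.07).

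In blocks of 10 Mb from the tip of the short arm, the naive shares were 53.7%, 58.1%, 51.6%, 42.5%, 43.8%, 41.6%, 48.4% and 45.3%. The primed shares of the same blocks were 93.2%, 93.1%, 74.8%, 34.0%, 52.8%, 33.0%, 6.3% and 34.1%. The naive share thus stayed between 41.6% and 58.1% in every block, while the primed share had a high end, a second, lower maximum in the block at 40 to 50 Mb and a low point in the block at 60 to 70 Mb. In primed cells the first 26 windows of 1 Mb in a row were each at 80% or more, among them 3 windows at 21 to 24 Mb on the long arm with 100%, 100% and 99%. The share then went down over neighbouring windows, with 86% and 82% at 24 to 26 Mb, 63% and 53% at 26 to 28 Mb and 38% at 28 to 29 Mb. Such a run was not the longest of the genome: it ranked 10 of 23, and that of chromosome X had 49 windows.

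The low stretch lay at 64 to 72 Mb, where 8 windows in a row had under 10% in primed NADs. Their primed shares were 2%, 3%, 0%, 1%, 3%, 5%, 8% and 9%. Their naive shares were 52%, 63%, 59%, 55%, 52%, 46%, 38% and 61%, so that 7 of the 8 windows nearly empty in primed cells were at or above the long-arm median in naive cells. Windows with at least 40% in naive and under 10% in primed NADs made up 8 of 80 on chromosome 18 (10.0%), against 5.95% of 2822 on the other chromosomes. Windows under 10% in primed NADs were 9 of 80 (11.25%) here, against 28.8% elsewhere. The longest run of them on any chromosome was 63 windows, on chromosome 4. Low primed windows are therefore less frequent on chromosome 18 than in the genome, and these windows were picked after their values had been seen. From 77 Mb to 80 Mb the primed share was 59%, 72% and 64%, and the naive share 44%, 44% and 41%.

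**Figure D3:**
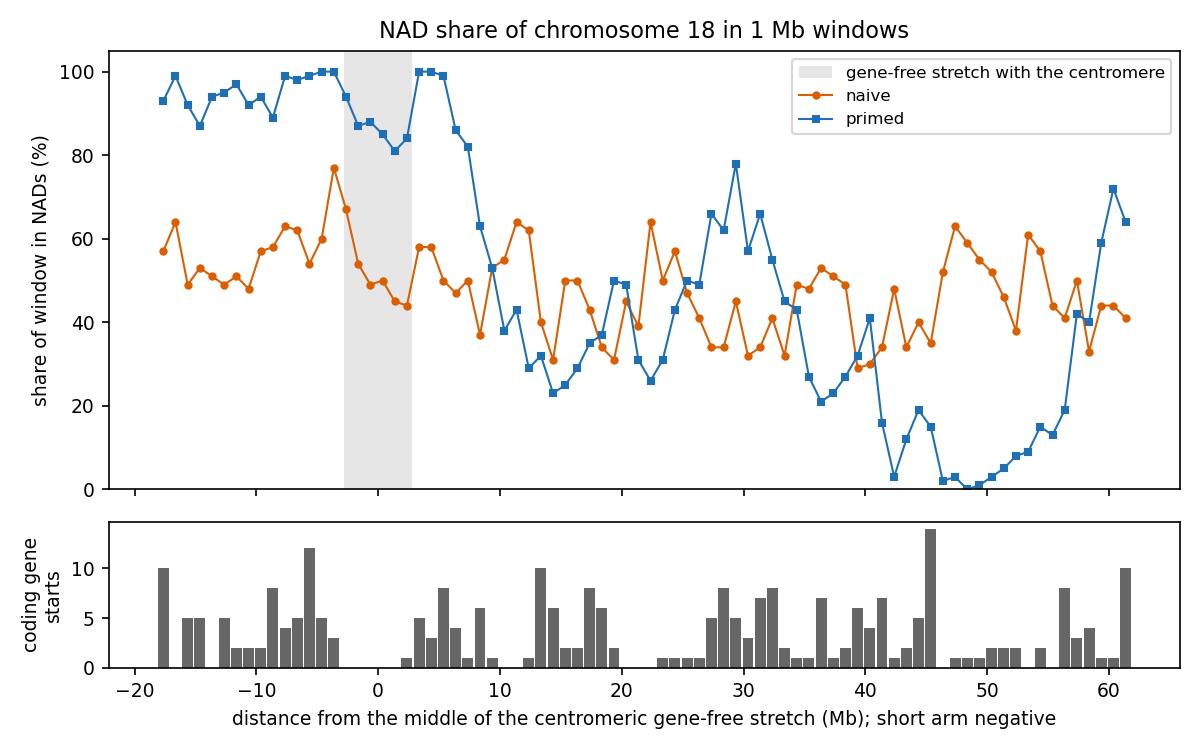
Share of each 1 Mb window of chromosome 18 in naive (orange) and primed (blue) NADs (%, upper panel) and number of coding genes that start in it (lower panel), against distance from the middle of the centromeric gene-free stretch (Mb, short arm negative). Primed values are 81 to 100% over the short arm, the gene-free stretch and the adjoining long arm and reach 0 to 9% about 50 Mb out on the long arm, while naive values stay between 29 and 77%.

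Across the 80 windows, naive and primed shares were weakly related (Pearson's r = 0.273, Spearman's rho = 0.246). The r of chromosome 18 ranked 23 of 23, against 0.506 ± 0.118 on the others, and its rho ranked 22 of 23, against 0.503 ± 0.148, with chromosome 9 lower at 0.173. Within the 15 short-arm windows r was 0.549 (rho 0.615), and within the 59 long-arm windows -0.104 (rho -0.190). These are descriptions over windows of the same lists, which share their repeats and mappable bases and are not independent.

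Gene density was set against the shares next, since chromosome 18 had the fewest coding genes per Mb of the 23. Of the 80 windows, 35 held more than the median of 2 coding gene starts and 45 held 2 or fewer. In naive cells the gene-dense windows averaged 45.3% ± 11.7 in NADs and the gene-poor windows 50.3% ± 8.45 (SD over windows). In primed cells the gene-dense windows averaged 63.4% ± 30.7 and the gene-poor windows 44.3% ± 32.6, and this difference of 19.1 points was 6.81 points with windows of 0.5 Mb. Both differences are smaller than the larger of the 2 spreads.

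The arms differed in this respect. On the long arm the 25 gene-dense windows averaged 40.2% ± 8.49 in naive NADs and the 34 gene-poor windows 49.5% ± 8.74. In primed NADs the gene-dense windows of the long arm averaged 50.7% ± 27.2 and the gene-poor ones 29.4% ± 21.6. On the short arm, primed NADs covered 95.2% ± 4.76 of the 10 gene-dense and 95.2% ± 2.77 of the 5 gene-poor windows. Gene number per window correlated with the naive share at r = -0.489 and with the primed share at r = 0.215 over the 59 long-arm windows, and at r = -0.0682 and -0.111 over the 15 short-arm windows.

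The longest primed regions lay on the short arm and beside the centromere, and 4 of the 5 held coding genes. The longest spanned 3020 kb of the long arm next to the centromere, chr18:20910001-23930000, and held 16 coding genes. Among them were GATA6, the kinase gene ROCK1, MIB1, a ubiquitin ligase of Notch signalling, NPC1, a cholesterol transporter, and LAMA3, a laminin subunit of epithelial basement membranes. Naive NADs covered 54.6% of it in 70 short regions. The second, chr18:12460001-15420000, held 14 coding genes, including the phosphatase gene PTPN2, the melanocortin receptors MC2R and MC5R, the zinc finger gene ZNF519 and, next to the centromere, POTEC and ANKRD30B. It was 70.6% covered by 62 naive regions. POTEC and ANKRD30B have close copies elsewhere in the genome, so their placement is uncertain.

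The third longest primed region, chr18:10290001-11650000, was 1360 kb long and held APCDD1, an inhibitor of WNT signalling, and the mechanosensitive channel gene PIEZO2. Naive NADs covered 64.7% of it. The next 2 were 880 kb each and lay 10 kb apart near the tip of the short arm. The first of these, chr18:570001-1450000, held 6 coding genes, among them TYMS, thymidylate synthase, the tyrosine kinase YES1 and the neuropeptide gene ADCYAP1, and was 61.4% covered in naive cells. The other, chr18:1460001-2340000, held no coding gene and was 60.2% covered in naive cells.

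The 5 longest naive regions named here were 120 to 170 kb long. Further regions of 120 kb, at 14 to 15 Mb and at 30 to 31 Mb, tie with the last of them and are not named because they lie farther along the chromosome. The first, chr18:15250001-15420000, lies beside the centromere, holds no coding gene and was fully inside a primed NAD. The second, chr18:29130001-29280000 (150 kb), holds no coding gene and was 33.3% covered in primed cells. Next came the region over LINC01916 described below with those called in naive cells only. Then chr18:2530001-2650000 (120 kb) contained METTL4 and NDC80, a kinetochore gene, and was 91.7% covered in primed cells, and chr18:10760001-10880000, of equal length, lay in PIEZO2 and was fully covered.

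Regions called in 1 state with no touching region in the other lay mostly on the long arm, with 661 of 674 in naive and 387 of 397 in primed cells. That arm held 1327 of all 1822 naive and 953 of all 1075 primed regions. Primed NADs covered 95.3% of the short arm, so few naive regions could lie untouched there. In naive cells the longest untouched regions were chr18:65310001-65440000 (130 kb, over the long non-coding RNA gene LINC01916), chr18:65100001-65190000 and chr18:72180001-72270000 (90 kb each), with no coding gene in any of them. In primed cells the longest was chr18:49490001-49560000 (70 kb), over part of RPL17, a ribosomal protein gene with 38.1% of its body in naive and 61.9% in primed NADs. The neighbour C18orf32, just before it, had 100% of its body in naive and none in primed NADs. The other 2 primed regions were chr18:78420001-78480000 (60 kb, no gene) and chr18:2740001-2790000 (50 kb), inside SMCHD1, a chromatin protein of X inactivation. The longest stretch outside the centromere in neither list was chr18:69840001-69940000 (100 kb), over parts of DOK6 and CD226. After it came chr18:63850001-63930000 (80 kb), over SERPINB2 and part of SERPINB10, and chr18:64290001-64370000 (80 kb), with no coding gene.

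By number, 1148 of 1822 naive regions touched a primed region (63.0%, against 53.2% over all chromosomes), and 678 of 1075 primed regions touched a naive one (63.1%, against 56.4%). On the short arm 355 of 361 naive regions touched a primed region and 334 lay fully inside one. Primed NADs covered 95.3% of that arm, so these counts were nearly fixed by coverage and do not show closer agreement of the lists. On the long arm, where primed NADs covered 38.5%, 666 of 1327 naive regions touched a primed region and 378 lay fully inside one (28.5%). Primed regions averaged 241.0 kb on the short arm and 24.0 kb on the long arm, and naive regions 24.7 kb and 20.4 kb. Sequence in both lists came to 21.51 Mb, or 26.8% of the chromosome (22.1% over all chromosomes), which was 55.6% of the naive and 50.9% of the primed sequence. It was 1.06 times the product of both shares, and 1.14 ± 0.0808 times on the other chromosomes.

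Sequence called in naive cells only made up 17.15 Mb, or 21.4% (18.1% over all chromosomes), and 16.57 Mb of it lay on the long arm. Sequence called in primed cells only made up 20.73 Mb, or 25.8% (23.4%), with 6.09 Mb on the short arm and 12.33 Mb on the long arm. Neither list covered 26.0% (36.4%). On the short arm, 2.02% was naive only, 39.7% primed only and 2.67% in neither, against 27.9%, 20.8% and 33.6% on the long arm.

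A coding gene was assigned to a list if at least 1 base of its body fell inside one of the regions. Of 268 coding genes, 239 (89.2%) overlapped naive NADs and 236 (88.1%) primed NADs, against 76.8% and 81.8% of 19839 coding genes over all chromosomes. The naive share of genes was the highest of 23 chromosomes. So was the median length of its coding genes, 52.1 kb against 27.1 ± 9.44 kb on the others, and a longer gene touches a region more easily; the part of length in the count was not tested. By the 10 kb bin of the annotated start site, 49.0% of 365 start sites (234 genes) were in naive and 67.1% in primed NADs, against 41.5% and 64.9% of 21767 start sites on 21 other chromosomes (start sites of chromosome 8 were not used here). With at least 50% of the gene body required, 122 of the 268 genes were in naive and 148 in primed NADs. The share over all chromosomes at this limit is not given here. The median share of gene body was 47.2% in naive and 60.6% in primed NADs on chromosome 18, against 35.6% and 75.8% over all coding genes of all chromosomes.

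Both lists held 217 of the 268 genes (81.0%, background 65.2%). There were 22 genes in naive NADs only (8.21%, background 11.6%), 19 in primed NADs only (7.09%, background 16.6%) and 10 in neither (3.73%, background 6.6%). All 22 naive-only genes lay on the long arm. On the short arm all 68 coding genes overlapped primed NADs and 51 of them (75.0%) had the whole body inside, while 62 overlapped naive NADs and 10 had the whole body inside. On the long arm 177 of 200 overlapped naive and 168 primed NADs, with the whole body inside for 9 and 28 genes. In the block at 60 to 70 Mb, 23 of 29 genes overlapped naive and 17 primed NADs.

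**Figure D4:**
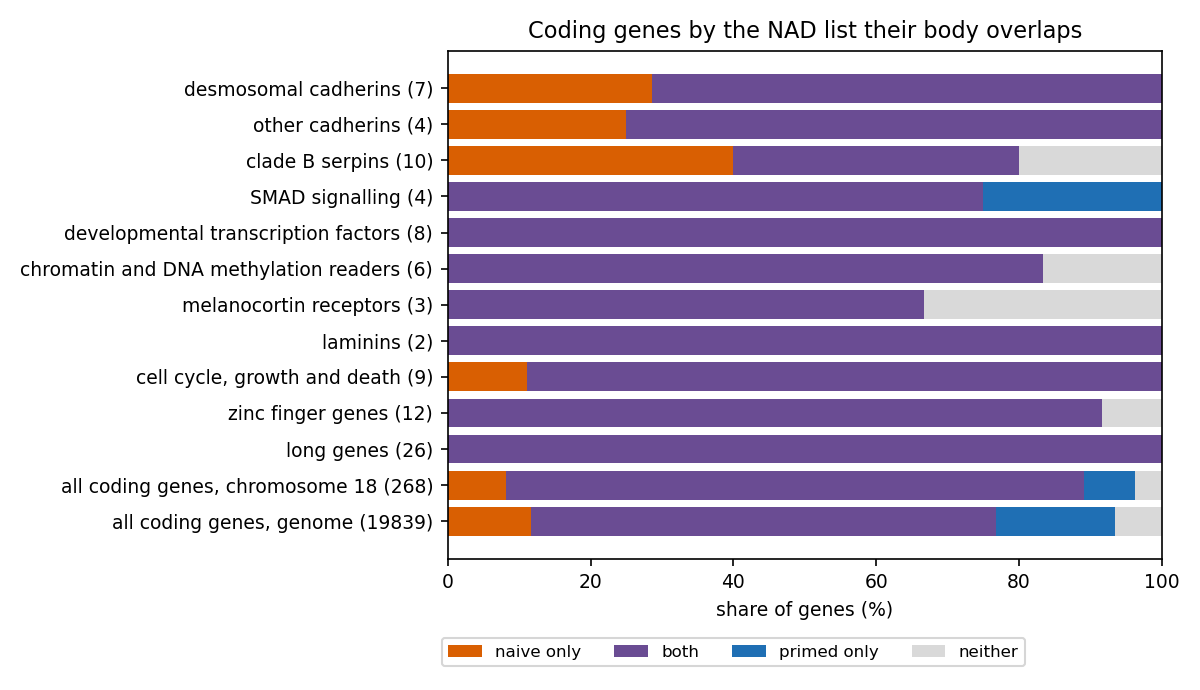
Share of coding genes (%) whose body overlaps naive NADs only (orange), both lists (purple), primed NADs only (blue) or neither (grey), for gene groups of chromosome 18, with the number of genes in parentheses, and for all coding genes of the chromosome and of the genome. Clade B serpins and desmosomal cadherins hold naive-only members (4 of 10 and 2 of 7) and no primed-only member.

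Over all coding genes of the chromosome, 89.2% overlapped naive and 88.1% primed NADs, which is the background for each group of coding genes below. Genes of cell adhesion are considered first. The 7 desmosomal cadherins, which join epithelial cells and lie in a row at 31 Mb, all overlapped naive NADs, and 5 overlapped primed NADs. Their median share of gene body was 39.6% in naive and 23.9% in primed NADs, beside 47.2% and 60.6% over all coding genes of the chromosome. Over the 200 coding genes of the long arm, where all 7 lie, the medians were 44.0% and 39.5%. At 30 to 32 Mb, naive NADs covered 51.0% and primed NADs 30.5% of the sequence, so the low primed shares are not particular to these genes. DSG1, the desmoglein of upper epidermis, had 48.7% in naive NADs and none in primed NADs, and DSG4, a desmoglein of hair, 39.1% and none. DSC1, DSC2 and DSC3, the desmocollins, had 40.5%, 5.56% and 42.6% in naive NADs and 38.2%, 25.6% and 23.9% in primed NADs. DSG2 had 23.3% and 19.7%, and DSG3 39.6% and 28.1%.

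The other 4 cadherins lie apart from each other on the long arm, and all of them overlapped naive NADs and 3 primed NADs. CDH2 had 48.0% of its body in naive and 55.0% in primed NADs. CDH20 had 38.9% and 13.5%, CDH7 57.2% and 7.14%, and CDH19 77.7% in naive NADs and none in primed NADs. The last 2 lie in the stretch that primed NADs nearly skip. Of the laminin genes, LAMA1 on the short arm had 50.1% in naive and 89.6% in primed NADs, and LAMA3 next to the centromere 71.5% and 96.2%.

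Clade B serpins, intracellular protease inhibitors of epithelia and blood cells, form a cluster at 63 to 64 Mb. Naive NADs overlapped 8 of 10 and primed NADs 4 of 10, with medians of 37.7% and 0 of the gene body. Over all coding genes of the chromosome, 89.2% overlapped naive and 88.1% primed NADs. On the long arm, 88.5% of coding genes overlapped naive and 84.0% primed NADs, with medians of 44.0% and 39.5% of the gene body. In the block at 60 to 70 Mb, which holds the cluster, 23 of 29 genes overlapped naive and 17 primed NADs. The serpins are among these 29 genes. SERPINB5, also called maspin, had 53.6% in naive NADs and none in primed NADs, SERPINB7 42.7% and none, SERPINB11 35.7% and none, and SERPINB13 22.4% and none. SERPINB4 had 100% and 60.8%, SERPINB12 39.8% and 1.77%, SERPINB8 40.1% and 20.0%, and SERPINB10 21.7% in both lists. SERPINB2 and SERPINB3 lay in neither. SERPINB3 and SERPINB4 are near-identical copies, so reads may be split between them and the contrast of the pair is uncertain. The window that holds the cluster was the most gene-dense of the chromosome, with 14 coding gene starts, and had 35% in naive and 15% in primed NADs.

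Regulators of development overlapped both lists, with a larger share of the body in primed NADs for 5 of 8. All 8 developmental transcription factors overlapped both lists, with medians of 54.5% in naive and 68.4% in primed NADs. Over all coding genes of the chromosome, 81.0% overlapped both lists, and the medians were 47.2% and 60.6%, so primed was the higher there too. GATA6 had 60.7% in naive and 100% in primed NADs, and its start site lay in a bin called in primed cells only. SALL3, a zinc finger factor of limb and nerve development, had 99.0% and 100%, and NFATC1, of heart valve and osteoclast development, 40.5% and 77.5%. ONECUT2, a liver and neural factor, had 46.4% in both lists. The neural factors TCF4 and TSHZ1 had 59.4% and 49.5% in naive and 38.1% and 12.6% in primed NADs.

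Of 4 genes of SMAD signalling, which carries TGF-beta and NODAL signals, all overlapped primed NADs and 3 naive NADs. TGIF1, a repressor of this pathway, had none of its body in naive and 100% in primed NADs. SMAD2, a transducer of NODAL signals, had 82.7% and 90.9%, SMAD4, the common partner, 36.5% in both lists, and the inhibitor SMAD7 3.1% and 35.2%. Of 6 genes of chromatin and DNA methylation, 5 overlapped each list. Beside the counts of both groups, 89.2% of all coding genes of the chromosome overlapped naive and 88.1% primed NADs. SMCHD1 had 30.2% in naive and 76.5% in primed NADs and MBD1, a reader of methylated DNA, 20.9% and 88.1%. MBD2, a second reader, had 61.1% and 6.39%. CXXC1, which binds unmethylated CpG, lay in neither list. Its body is 5.35 kb long, shorter than a bin.

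Genes of growth and survival on the short arm and next to the centromere had most of their body in both lists. TYMS had 77.5% in naive and 100% in primed NADs, YES1 86.0% and 100%, ROCK1 67.8% and 100% and MIB1 75.3% and 100%. NDC80 had 100% in naive and 77.8% in primed NADs. Farther out, BCL2, the inhibitor of apoptosis, had 20.3% and 28.8%, MALT1, of antigen receptor signalling, 12.05% and 22.3%, and PMAIP1 100% in naive and none in primed NADs. PMAIP1 is 4.31 kb long, so its contrast rests on 2 bins. Of 12 zinc finger genes, 11 overlapped each list, near the 89.2% (naive) and 88.1% (primed) of all coding genes of the chromosome, and ZNF397 lay in neither. Of the melanocortin receptors, MC5R had 100% in both lists and MC2R 76.4% in naive and 100% in primed NADs, and MC4R, far out on the long arm, lay in neither.

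**Figure D5:**
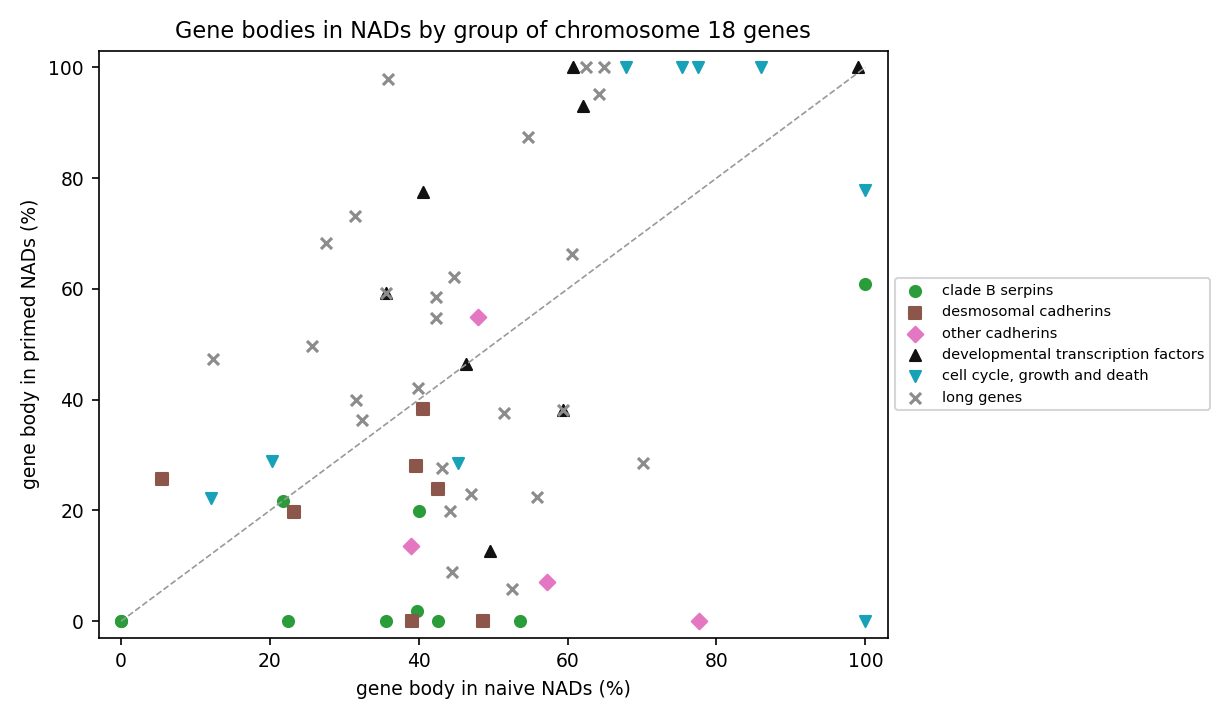
Share of the gene body in naive NADs (horizontal axis, %) and in primed NADs (vertical axis, %) for members of the gene groups named in the legend; each symbol is 1 gene and the dashed line marks equal shares. Serpins and most cadherins lie on or under the line, with 5 serpins other than SERPINB4 above 30% in naive and at 20% or less in primed NADs. Among genes of cell cycle, growth and death, TYMS, YES1, ROCK1 and MIB1 lie at 100% in primed NADs and NDC80 at 77.8%. BCL2, PIK3C3, MALT1 and PMAIP1, farther out on the long arm, lie between 0 and 28.8% in primed NADs.

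The 26 coding genes of at least 300 kb all overlapped both lists. With any overlap counted, this was nearly fixed by the length limit, since such bodies span many 10 kb bins. The shares of their bodies in primed NADs varied with position, without a steady fall along the long arm. In order from the centromere, CCDC178 had 19.9%, SLC14A2 68.3%, DOK6 8.92% and ATP9B 54.7% in primed NADs. The median share of gene body over the 26 genes was 44.3% in naive and 48.5% in primed NADs. The 5 on the short arm, DLGAP1, L3MBTL4, PTPRM, PIEZO2 and LDLRAD4, had 35.9 to 64.9% in naive and 87.5 to 100% in primed NADs. DCC, the netrin receptor and the longest gene of the chromosome (1196 kb), had 51.5% in naive and 37.6% in primed NADs. In the low stretch, CCDC102B had 52.5% and 5.83% and DOK6, an adaptor of receptor tyrosine kinases, 44.4% and 8.92%. WDR7 had 70.1% in naive and 28.6% in primed NADs, and MYO5B, a motor of membrane traffic, 31.5% and 73.1%.

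Genes wholly inside the NADs of 1 state and outside those of the other were few. Whatever the other list held, 19 of 268 coding genes (7.09%) lay wholly inside naive and 79 (29.5%) wholly inside primed NADs. In naive NADs alone, 100% of the body was covered for PMAIP1, C18orf32, LOC105372204 and LOC107985149. In primed NADs alone it was covered for TGIF1, ADCYAP1, the tubulin gene TUBB6, the lectin gene SIGLEC15, LRRC30, TXNDC2, ELOA2, RMP24 and LOC124904253. TGIF1 was the longest of these at 47.97 kb, and 6 of these 9 genes lie on the short arm. There, 75.0% of all 68 coding genes were wholly inside primed NADs. Apart from TGIF1, TUBB6 and SIGLEC15, every gene named in this paragraph is shorter than a 10 kb bin, so its contrast rests on very few bins. Those chosen by this full contrast and not by a list were picked after their values had been seen.

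Start-site sequences differed in base composition with the kind of bin, which the choice of regions did not use. The windows run from 250 bases before to 50 after each of 365 annotated starts, and starts of the same gene can overlap. In bins called in naive cells only (46 starts), the median was 51.7% G and C with 8 CpG. In bins called in primed cells only (112 starts) it was 63.2% with 22.5 CpG, in bins of both lists (133 starts) 65.3% with 27 CpG, and in bins of neither (74 starts) 58.5% with 19 CpG. For the 21767 start sites on the 21 other chromosomes used for start sites above, the medians were 59.7%, 64.0%, 63.0% and 60.3% in the same order, so the median of the naive-only starts was the lowest there too, by less. The ranges overlap almost wholly, from 30.3 to 78.3% for naive-only and from 31.3 to 83.0% for primed-only starts. Apart from a start of DLGAP1 and a start of PTPRM, the naive-only starts all lie on the long arm. Starts in neither list all lie on the long arm too, so their median and that of the naive-only starts describe nearly the same arm. Primed-only starts and starts of both lists lie on both arms. Against those kinds, kind of bin and arm cannot be told apart in these medians. The letters TATAAA, searched on both strands of these windows, were found in 10 of the 46 naive-only starts (21.7%), 11 of 112 primed-only (9.82%) and 41 of all 365 (11.2%), against 11.2% of naive-only, 8.38% of primed-only and 9.43% of all windows on the same 21 other chromosomes. Among the 10 naive-only windows, DYNAP and LOC124904304 are each counted at different starts of the same gene. None of the 4 sequences printed above holds TATAAA.

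Of 35 miRNA genes, 19 overlapped naive NADs (54.3%, against 38% of 1911 over all chromosomes) and 22 primed NADs (62.9%, against 61.9%), and 15 overlapped both (against 25.6%). The shares of the chromosome's sequence in NADs were 48.2% in naive and 52.6% in primed cells. The mature forms of 4 of them are shown because they are known from muscle and liver or named with the stem cell miRNAs, and are found in both lists, in 1 list or in neither, with the seed (bases 2 to 8) in capitals, from RefSeq (GRCh38.p14).
hsa-miR-1-3p: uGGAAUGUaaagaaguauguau
hsa-miR-133a-3p: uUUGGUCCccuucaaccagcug
hsa-miR-302f: uAAUUGCUuccauguuu
hsa-miR-122-5p: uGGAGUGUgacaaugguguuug
The muscle miRNAs miR-1 and miR-133a, within the MIB1 gene (chr18:21829015-21829036 and chr18:21825712-21825733, both on the minus strand), lay in both lists. miR-302f, whose name places it with the stem cell miRNAs of the miR-302 family, lay in primed NADs only (chr18:30298936-30298952, plus strand), and miR-122, the main miRNA of liver, in neither (chr18:58451088-58451109, plus strand). The 4 seeds shown differ from each other. A miRNA gene is far shorter than a bin, so each of these calls rests on a single bin.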

How the data were processed

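DNA from nucleoli and from whole cells of H9 naive and primed cells was sequenced by the study in 12 libraries, 3 per group. Per the labels, the deposited data are 1 list for each state, whose lines give a chromosome, start and end on hg38. BWA, SAMtools 1.10 and SICER stand in the submitters' processing notes without role or order, and no setting of the caller or handling of replicates is given in the sources used here. On chromosome 18 region limits lie on a 10 kb grid.

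Covered 10 kb bins were counted in Python 3.11.15 (scipy 1.17.1, pandas 2.3.3, numpy 2.4.6, drawings by matplotlib 3.10.9), and the counting was tested on simulated data. The length of chromosome 18 was taken as 80.26 Mb, the end of its last region or gene. Stretches of at least 500 kb with no region and no gene were taken out of the chromosomes, 2914 Mb being kept; chromosome 18 has none, so its arms were divided at its longest gene-free stretch instead of at such a stretch. Regions belong to the arm that holds their middle. Genes and start sites came from RefSeq tables on GRCh38.p14, without genes of unplaced or alternate scaffolds (4 labelled with chromosome 18). No comparison has a test or an interval, since each state has 1 list.

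Named genes were all list members in NADs of 1 state, up to 4 others per list and genes of the named regions; the remaining members named, and genes named from no list, were picked after their values were seen. Members and lists were chosen with earlier results of these data known. Alternatives were gap joining, length limits, empty stretches, overlap rules, window size, other chromosomes and, added later, the centromere.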

Additional observations from a re-analysis of the deposited data

How the results depend on the processing

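No paired analysis was possible because each state has 1 list and no value per replicate, and for the same reason no replicate could be left out. The read depth, the calling settings and the handling of repeats behind each list are unknown, so a difference in number or length of regions cannot be told apart from one in depth. In the gene-dense against gene-poor comparison, the naive difference of -5.00 points was between -5.83 and -3.003 under all its alternatives, and the naive arm contrast of 11.99 points between 10.8 and 12.96.

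With regions up to 50 kb apart joined, the naive share was 89.5% and the primed share 75.4%, the difference between them turned to 14.2 points, chromosome 18 stood 7.84 points above the mean of the others in naive and 6.17 points above it in primed cells, and the primed arm contrast was 33.1 points. Without single-bin regions the naive share was 37.3%, the primed share 45.9%, the difference -8.62 points, the primed distance from the others -4.19 points and the primed arm contrast 65.5 points, while 543 naive and 309 primed regions touched the other list. With regions of at least 100 kb alone, the naive share was 1.92%, the primed share 26.8% and the difference -24.8 points. With empty stretches kept, which changes only the other chromosomes, chromosome 18 stood 7.51 points above them in naive and 1.77 points above them in primed cells, and without chromosomes X and 19 the primed distance was 1.25 points. Without the centromeric stretch, an alternative added after seeing the data, the primed share was 50.2% and the difference -2.06 points. With 50% of the gene body required, 122 of 268 coding genes were in naive and 148 in primed NADs, with no share over all chromosomes at this limit. With 50% of both regions coinciding, 324 naive and 324 primed regions were shared. In windows of 0.5 Mb the primed difference between gene-dense and gene-poor windows was 6.81 points.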

Other observations

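Genes of chromosome 18 that do not code for protein were counted in the same way, with no test between classes. Of 461 long non-coding RNA genes, 332 overlapped naive NADs (72.0%, against 62.9% of 17950 over all chromosomes) and 338 primed NADs (73.3%, against 64.6%), with 74 in naive NADs only and 80 in primed NADs only. Of 24 snoRNA genes, whose RNAs guide the modification of other RNAs in the nucleolus, 13 overlapped naive NADs (54.2%, against 44.7% of 1191) and 18 primed NADs (75.0%, against 60.4%). Of 301 pseudogenes, 158 overlapped naive NADs (52.5%, against 44.8% of 15096) and 175 primed NADs (58.1%, against 53.2%). The chromosome's shares of sequence in NADs were 48.2% in naive and 52.6% in primed cells.

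Of the 10 coding genes in neither list, all on the long arm, TTR, the carrier of thyroxine in plasma, lies just beyond the desmosomal cadherins. The others are MEP1B, ZNF397, CXXC1, NARS1, MC4R, SERPINB3, SERPINB2, DSEL and LOC124904331. Their bodies were 1.71 to 30.4 kb long (median 8.54 kb), against a median of 70.4 kb for the 217 genes in both lists, 37.9 kb for the naive-only and 13.8 kb for the primed-only genes.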
